A study of Homo sapiens with 132 samples.

Results

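The Sprouty genes SPRY1, SPRY2 and SPRY4 and the SPRED genes SPRED1, SPRED2 and SPRED3 were followed through RNA sequencing of 4 gastric cancer cell lines. Members were chosen by name, as the rows whose Ensembl identifier carries one of these 6 symbols, which are 6 of 65217 identifiers in each library. All lines were studied without treatment, with trastuzumab at 5 µg/ml, with afatinib at 0.5 µM and with both drugs together, in MKN1, Hs746T, MKN7 and NCI-N87 (N87 in the labels) alike. MKN1 and Hs746T cells also received EGF at 5 ng/ml, cetuximab at 1 µg/ml, or EGF + cetuximab. RNA was taken after 4 h and 24 h, with 3 replicates for each of 44 conditions. Cetuximab is an antibody against EGFR, trastuzumab is an antibody against HER2 (the product of ERBB2), and afatinib is a small molecule that blocks the kinases of the EGFR family irreversibly. All 4 are established cell lines. The medium was exchanged in all wells before treatment, and untreated cells rather than solvent-treated cells were the control for afatinib. According to the methods the replicates were biological, and the labels give nothing further on separate cultures. If they share a culture, p-values measure only the spread between these samples.

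Growth factor receptors switch on RAS, which starts a chain of kinases (RAF, MEK and ERK) that ends in the nucleus. Sprouty and SPRED proteins are brakes on this chain, and several of their genes are themselves switched on by ERK, which closes a negative feedback loop. The Sprouty proteins are docked to the membrane by a cysteine-rich domain and interfere with adaptors such as GRB2 or with RAF, depending on the receptor. SPRY2 also binds the ubiquitin ligase CBL, which otherwise removes EGFR from the surface. SPRED proteins carry an EVH1 domain. SPRED1 recruits neurofibromin (NF1), an enzyme that returns RAS to its inactive state. Levels of these genes are widely read as a gauge of ERK output.

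The members lie on 6 chromosomes of GRCh38 in the gene models of GENCODE 29, and all 6 are protein-coding. SPRY1 (ENSG00000164056) lies at chr4:123396795-123403760 on the plus strand. SPRY2 (ENSG00000136158) lies at chr13:80335976-80340951 on the minus strand. SPRY4 (ENSG00000187678) lies at chr5:142310427-142326455 on the minus strand. SPRED1 (ENSG00000166068) lies at chr15:38252326-38357249 on the plus strand, SPRED2 (ENSG00000198369) at chr2:65310851-65432637 on the minus strand and SPRED3 (ENSG00000188766) at chr19:38388421-38399587 on the plus strand. No exon base of a member is shared with an exon of another annotated gene. Counts were found for every member in every library, from 4 counts (SPRY4) to 10379 counts (SPRED2).

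Promoters of all 6 members were found in RefSeq (GRCh38.p14), 11 in all, each with 250 bases before and 50 bases from the start site on. They were searched on both strands for the letters CCGGAA (ETS factors), TGANTCA (AP-1), TGACG (a core of the cAMP response element), GCGNGGGCG (EGR factors), CACGTG (an E-box) and the CArG box of serum response factor. ETS, AP-1 and EGR factors are classical nuclear endpoints of ERK signalling. In the following sequences, 1 promoter per gene is shown, for genes with several the one with most matches, so that the gene that moved most (SPRY4), those that moved with it and the gene that seldom did (SPRED3) can be read side by side. Matches are in capitals, in the order chr4:123398136-123398435 (plus), chr13:80341077-80341376 (minus), chr5:142324198-142324497 (minus), chr15:38252586-38252885 (plus), chr2:65366729-65367028 (minus) and chr19:38389541-38389840 (plus).
SPRY1: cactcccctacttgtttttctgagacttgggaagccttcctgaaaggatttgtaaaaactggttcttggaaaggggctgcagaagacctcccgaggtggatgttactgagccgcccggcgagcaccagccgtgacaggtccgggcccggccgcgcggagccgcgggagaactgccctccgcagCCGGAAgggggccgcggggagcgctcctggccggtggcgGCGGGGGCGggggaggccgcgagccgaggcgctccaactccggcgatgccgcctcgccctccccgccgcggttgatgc
SPRY2: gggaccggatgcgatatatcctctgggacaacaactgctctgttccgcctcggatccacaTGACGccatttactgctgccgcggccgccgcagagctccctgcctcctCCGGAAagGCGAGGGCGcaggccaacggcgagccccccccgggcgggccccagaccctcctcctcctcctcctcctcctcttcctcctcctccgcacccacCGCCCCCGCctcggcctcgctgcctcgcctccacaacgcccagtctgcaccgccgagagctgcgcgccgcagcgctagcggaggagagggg
SPRY4: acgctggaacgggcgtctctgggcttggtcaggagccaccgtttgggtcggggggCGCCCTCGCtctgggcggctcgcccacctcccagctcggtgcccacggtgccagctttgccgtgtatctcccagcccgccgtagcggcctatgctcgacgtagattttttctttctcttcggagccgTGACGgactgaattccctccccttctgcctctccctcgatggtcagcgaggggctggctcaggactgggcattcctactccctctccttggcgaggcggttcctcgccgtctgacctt
SPRED1: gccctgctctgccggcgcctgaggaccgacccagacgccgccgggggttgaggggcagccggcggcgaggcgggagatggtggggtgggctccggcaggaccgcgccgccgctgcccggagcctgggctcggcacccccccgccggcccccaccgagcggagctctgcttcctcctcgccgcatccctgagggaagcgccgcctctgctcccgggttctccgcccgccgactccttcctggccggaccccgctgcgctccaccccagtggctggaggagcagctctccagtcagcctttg
SPRED2: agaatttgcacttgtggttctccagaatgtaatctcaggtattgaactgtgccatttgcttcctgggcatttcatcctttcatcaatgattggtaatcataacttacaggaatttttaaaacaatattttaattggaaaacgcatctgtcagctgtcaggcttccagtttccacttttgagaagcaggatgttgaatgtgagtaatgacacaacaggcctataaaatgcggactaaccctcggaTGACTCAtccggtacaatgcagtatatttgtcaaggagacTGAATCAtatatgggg
SPRED3: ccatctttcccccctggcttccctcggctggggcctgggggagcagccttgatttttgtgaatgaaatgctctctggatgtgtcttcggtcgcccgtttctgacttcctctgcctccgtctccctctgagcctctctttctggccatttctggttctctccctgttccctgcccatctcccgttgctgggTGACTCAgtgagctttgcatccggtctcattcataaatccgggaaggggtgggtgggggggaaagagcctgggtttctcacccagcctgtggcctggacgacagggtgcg

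The SPRY4 promoter held an EGR match at -195 and a TGACG match at -68, counted from the start site. The SPRY2 promoter held an ETS match at -142, TGACG at -190 and EGR matches at -134 and -41. SPRY1 held an ETS match at -67 and an EGR match at -28. SPRED2 held AP-1 letters at -6 and 35 in the window shown and a TGACG match at 31 in its other promoter, SPRED3 held AP-1 letters at -60, and no match was found in the SPRED1 window. The windows of SPRY1, SPRY2 and SPRED3 that are not shown held no match. Among 35116 RefSeq promoters of the same length, CCGGAA was found in 17.2%, TGANTCA in 7.71%, TGACG in 24.6%, GCGNGGGCG in 9.43%, CACGTG in 7.26% and the CArG box in 1.29%. These shares are per promoter, while for genes with several promoters the window shown was picked for having most matches. The matches are a description of the letters, and a window without a match says nothing about a factor. No set of letters was shared by all members that responded below.

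Depth did not differ by an order of magnitude between libraries. Totals ranged from 25832557 to 69434151 counts (median 50725775). A floor of 3 counts is worth 0.116 CPM (counts scaled to library size) in the shallowest and 0.0432 CPM in the deepest library, which covers counting error only. Replicates were not copies of each other, with 0 identical pairs. Levels below are CPM with TMM scaling over all libraries of the series, and differences are log2 fold changes (log2FC) ± SE from edgeR's quasi-likelihood test, fitted over all genes of a line with Benjamini-Hochberg adjustment. A gene is called regulated at an adjusted p below 0.05 and a log2FC above 1 or below -1. All 6 members passed the filter on low counts in all lines. Scaling by library size alone would shift the median of all genes by -0.24 for EGF in MKN1 at 24 h and by 0.29 for afatinib in NCI-N87 at 24 h, so changes are relative to that of most genes. Of the 10 gastric epithelial markers, the summed level in 6 untreated libraries per line was 17042.2 to 20950.2 CPM in MKN1, 6105.3 to 7237.9 in MKN7, 18530.5 to 21604.0 in NCI-N87 and 798.1 to 991.8 in Hs746T. CDH1 (E-cadherin) was at 0.821 ± 0.196 CPM in Hs746T and 2.02 ± 0.781 in MKN1 (mean ± SD, n = 6). The 10 markers of other cell types summed to 2424.7 to 2999.0 CPM in Hs746T and 365.3 to 751.1 in MKN1, led by VIM. In MKN7 and NCI-N87 the sums were 17.6 to 40.3 CPM. Other genes of this list were high in Hs746T as well, with mean COL1A1 at 565.7 CPM, COL1A2 at 175.2 and PECAM1 at 166.0. Mean CDH2 was at 85.2 CPM there and ZEB1 at 61.3. In MKN1 mean ZEB1 was at 38.6 CPM, COL1A1 at 13.4 and PECAM1 at 13.2. PTPRC, DCN and DES were below 0.7 CPM in every line. HBB was listed at 0 in all untreated libraries of MKN7 and Hs746T. The epithelial list was not low throughout in these lines. KRT8, a keratin gene of simple epithelia, was at 11445.2 ± 1062.0 CPM in MKN1 and 10575.2 ± 791.5 in NCI-N87, and CLDN4, a tight junction gene, at 319.3 ± 56.3 CPM in Hs746T and 147.9 ± 13.9 in MKN7. The drug targets also differed. ERBB2 stood at 12860.8 ± 1629.4 CPM in NCI-N87 and 4238.0 ± 708.7 in MKN7 against 149.1 ± 26.1 in MKN1 and 85.1 ± 5.33 in Hs746T. EGFR lay between 188.8 and 578.0 CPM on average, and MET at 4519.2 ± 741.0 in Hs746T against 130.5 to 328.7 in the other lines.

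In untreated cells the family was expressed in all 4 lines, and the order of the lines differed between members. The log2FC in this paragraph compare the 6 untreated libraries of one line (both times) with those of another. SPRY2 was highest in Hs746T (100 ± 15.7 CPM), followed by MKN7 (38.4 ± 7.06), MKN1 (14.9 ± 1.48) and NCI-N87 (7.21 ± 1.33). Every step of that order was regulated, with log2FC of 1.39, 1.33 and 1.07. SPRED3 followed another order, Hs746T (27.1 ± 3.92 CPM), MKN1 (12.1 ± 5.88), NCI-N87 (4.96 ± 0.649) and MKN7 (1.78 ± 0.226), again with every step regulated (log2FC 1.30, 1.17 and 1.48). The steps to MKN1 differed in size with time. Its mean was 6.98 CPM at 4 h and 17.1 at 24 h, against 5.29 and 4.63 in NCI-N87 and 28.8 and 25.3 in Hs746T. Steps between lines were not tested at each time alone. SPRED2, the most evenly expressed member, was at 128.7 ± 11.9 CPM in Hs746T and between 58.8 and 64.3 CPM in the other 3 lines, which did not differ among themselves beyond the threshold (adjusted p from 0.226 to 0.611 in edgeR).

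SPRY1 was at 1.80 ± 0.586 CPM in Hs746T, below MKN1 (5.68 ± 2.02), MKN7 (4.60 ± 1.36) and NCI-N87 (6.09 ± 1.17), with log2FC of 1.68, 1.35 and 1.79 for the other lines against Hs746T. The other 3 lines were not regulated against each other. SPRED1 was higher in Hs746T (69.8 ± 11.1 CPM) and NCI-N87 (67.9 ± 6.09) than in MKN7 (30.6 ± 7.57), while the differences from MKN1 (36.9 ± 14) had log2FC of -0.98 and -0.92 and so stayed short of the fold limit. For SPRY4, MKN7 (15.6 ± 8.28 CPM) was lower than MKN1 (41.6 ± 18.4) and Hs746T (43.1 ± 10.2), and NCI-N87 (26.8 ± 4.53) was regulated against none of the 3. In all, 22 of 36 member results between untreated lines were regulated. The share of all genes regulated was 41.8% for MKN1 against MKN7, 45.8% for MKN1 against NCI-N87, 48.2% for MKN1 against Hs746T, 44.7% for MKN7 against NCI-N87, 46.8% for MKN7 against Hs746T and 49.6% for NCI-N87 against Hs746T. Some of these calls were near the fold limit. SPRY2 in MKN1 against NCI-N87 had a log2FC of 0.91 without replicate 3, SPRED1 in MKN7 against Hs746T -0.98 without replicate 1, and SPRED2 in NCI-N87 against Hs746T -0.99 without replicate 3. Without replicate 3 others came past it, SPRY4 in MKN7 against NCI-N87 (-1.38, adjusted p = 1.19e-06) and SPRED1 in MKN1 against Hs746T (-1.24) and NCI-N87 (-1.10).

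Per kilobase of exon, the scale on which genes can be compared with each other, SPRY2 (32.9 CPM per kb) and SPRED2 (25) led in untreated Hs746T. SPRED2 led in MKN1 (11.7) and NCI-N87 (12.5), and SPRY2 in MKN7 (12.6). SPRY1 was the lowest member in MKN1 (1.43) and Hs746T (0.455). SPRED3 was the lowest in MKN7 (0.304) and NCI-N87 (0.846).

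**Figure D1:**
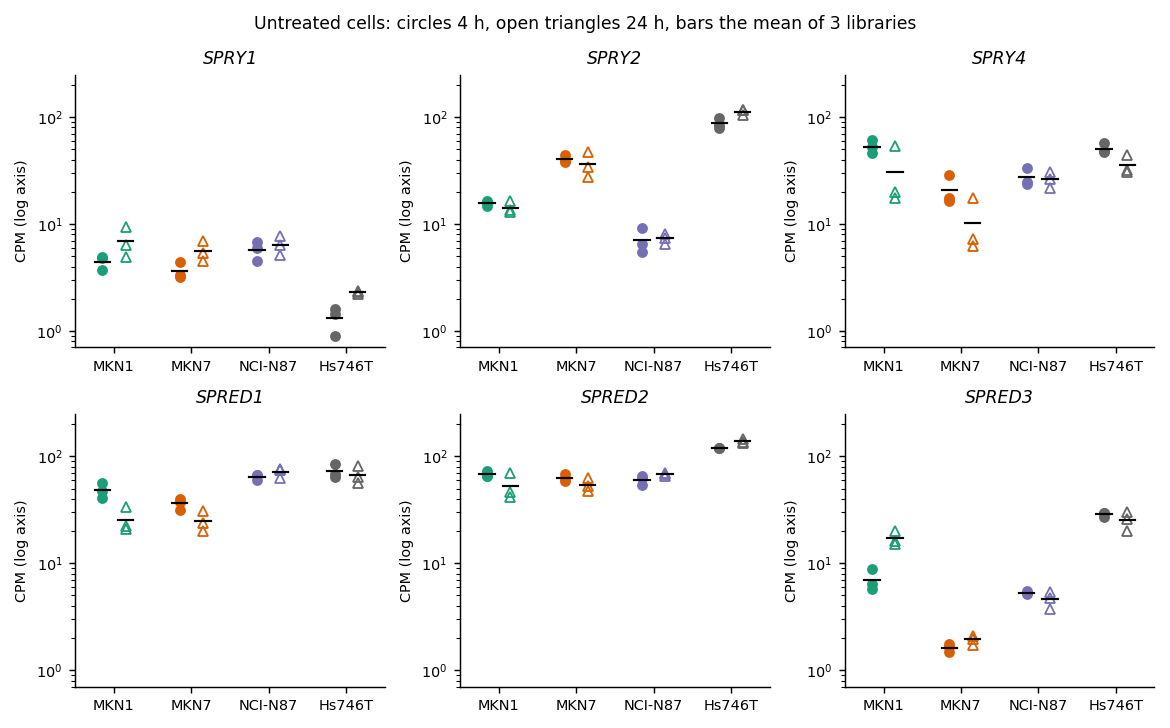
Level of each Sprouty and SPRED gene in untreated cells, in CPM on a log axis, for 4 cell lines. Circles are 4 h, open triangles 24 h, and bars the mean of 3 libraries. SPRY2 and SPRED3 spread over the lines most, from 7.21 to 100 CPM and from 1.78 to 27.1 CPM, and SPRY1 is lowest in Hs746T.

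Between 4 h and 24 h without treatment 1 of 24 member results was regulated. SPRED3 in MKN1 was at 8.80, 6.44 and 5.70 CPM at 4 h and at 20, 15.1 and 16.3 CPM at 24 h. The groups did not overlap, and SPRED3 rose by a log2FC of 1.27 ± 0.14 (adjusted p = 1.12e-08, edgeR). This stands against 8.06% of all genes regulated in MKN1. The share was 1.76% in MKN7, 0.129% in Hs746T and 0.0472% in NCI-N87. In MKN7 and in Hs746T 0 of 6 members were regulated, with 4 of 6 at an unadjusted p below 0.05 in edgeR and in DESeq2, and in NCI-N87 0 of 6 with 0. SPRY1 in Hs746T was at 1.59, 1.45 and 0.901 CPM at 4 h and at 2.36, 2.23 and 2.29 CPM at 24 h. These groups did not overlap, and the log2FC of 0.83 ± 0.20 (adjusted p = 0.024) was short of the fold limit. SPRY4 in MKN7 was at 17.4, 16.5 and 28.9 CPM at 4 h and at 7.25, 6.17 and 17.4 CPM at 24 h. In both groups the third replicate was the high one, and the groups overlapped through the 24 h library at 17.4 CPM. The log2FC was -1.06 ± 0.37 (adjusted p = 0.0519, edgeR), not regulated. It was -1.13 (adjusted p = 0.000422) with the replicate number as a block and -1.37 (adjusted p = 0.00921) without replicate 3. SPRY4 in MKN1 had a log2FC of -0.82 (adjusted p = 0.0545), and -1.39 (adjusted p = 0.00042) without replicate 3. SPRED1 there had -0.94 (adjusted p = 6.53e-05), and -1.04 without replicate 3. Without replicate 3 the count was thus 4 of 24.

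The third untreated MKN1 library at 24 h stood apart for the feedback genes and bears on each comparison with it. SPRY4 was at 17.5, 19.9 and 53.7 CPM there, SPRED2 at 41.7, 46.2 and 69.8, SPRED1 at 22.1, 21 and 33.4 and SPRY1 at 6.37, 4.96 and 9.41. The third trastuzumab library at 24 h was high as well, with 44.8 CPM of SPRY4 against 8.17 and 18.3. In the sample labels these libraries belong to the later of 2 numbering series, and the other MKN1 replicates to the earlier. What a series stands for is not given, and its part in these levels was not tested. In MKN7 and NCI-N87 replicates 2 and 3 both belong to the later series. In Hs746T replicate 2 belongs to the earlier series at 4 h and to the later at 24 h, so its comparison of the times partly crosses the series. Values without replicate 3, which for MKN1 are values within the earlier series, are given where they change a result.

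In MKN1, EGF raised SPRY4 at both times, SPRY2 at 4 h and SPRED1 at 24 h. At 4 h SPRY4 went from 52.1, 45.7 and 60.7 CPM to 169.8, 149.1 and 164.2 CPM. All EGF libraries lay above all untreated ones, and the log2FC was 1.62 ± 0.34 (adjusted p = 0.00137). SPRY2 went from 16.5, 14.6 and 15.6 CPM to 38.6, 37 and 36.6 CPM, again without overlap (log2FC 1.27 ± 0.14, adjusted p = 7.59e-08). These were 2 of 6 members, against 1.48% of all genes tested.

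At 4 h SPRED1 also lay above untreated cells without overlap, at 79.3, 69.4 and 82 CPM against 47, 41.2 and 56.3, by less than the fold limit (log2FC 0.68, adjusted p = 0.00886). At 24 h the regulated members were SPRY4 and SPRED1. SPRY4 was at 102.8, 88.7 and 111.4 CPM after EGF, still above the 3 untreated libraries given above (log2FC 1.75 ± 0.34, adjusted p = 0.00012, and 2.37 without replicate 3). SPRED1 was at 54.9, 45.6 and 57.2 CPM against 22.1, 21 and 33.4, with no overlap (log2FC 1.06 ± 0.17, adjusted p = 1.25e-05). SPRY2 was at 18, 16.7 and 17.8 CPM against 13.5, 12.9 and 16.3, which also did not overlap but was not regulated (log2FC 0.32, adjusted p = 0.0792). The count of 2 of 6 compares with 8.36% of all genes. SPRED2 had log2FC of 0.52 (adjusted p = 0.0111) and 0.81 (adjusted p = 1.57e-05), both short of the fold limit (1.03 at 24 h without replicate 3), and SPRY1 had 0.02 and 0.01. The difference between the times was tested directly. For SPRY2 the EGF effect was lower by 0.96 at 24 h (adjusted p = 0.002), just short of the fold limit. For 0 of 6 members was the change of the EGF effect with time regulated, against 2.7% of all genes. Some EGF calls in MKN1 rest on single replicates or on the scaling. SPRY4 at 4 h had an adjusted p of 0.0631 without replicate 2, and SPRED1 at 24 h a log2FC of 0.94 without replicate 1 and 0.87 with library size alone.

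Cetuximab alone lowered SPRY4 in MKN1. At 4 h it was at 6.82, 9.95 and 6.51 CPM and at 24 h at 3.77, 4.70 and 6.06 CPM, each far below the untreated libraries of that time. SPRY4 fell 6.84-fold at 4 h (log2FC -2.77 ± 0.36, adjusted p = 1.21e-05) and 6.37-fold at 24 h (log2FC -2.67 ± 0.37, adjusted p = 2.69e-05). This was 1 of 6 members at each time, against 0.333% of all genes at 4 h and 1.33% at 24 h. Other members lay just inside the fold limit. At 4 h the log2FC was -0.99 for SPRY2 (adjusted p = 6.87e-05, and -1.23 without replicate 2), -0.91 for SPRED1 (adjusted p = 0.00198) and -0.89 for SPRED2 (adjusted p = 9.52e-05). At 24 h these were -0.86, -0.79 and -0.70. SPRY1 went from 4.77, 3.70 and 4.88 CPM to 2.29, 1.70 and 2.54 CPM at 4 h without overlap. Its log2FC was -1.04 ± 0.28 with an adjusted p of 0.0566, and -1.05 with an adjusted p of 1.18e-05 with the replicate number as a block. SPRY1 was also regulated with DESeq2 (adjusted p = 0.0109), without a filter (0.0447) and with at least 10 counts in every library (0.0459), so that these fits gave 2 of 6. SPRED3 went the other way at 24 h, from 20, 15.1 and 16.3 CPM to 26.4, 23.8 and 25 CPM, a log2FC of 0.53 (adjusted p = 0.00712) and so not regulated. The change of the cetuximab effect with time was regulated for 0 of 6 members, against 0.0555% of all genes.

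Under EGF + cetuximab at 4 h, SPRY4 was the only member regulated against untreated cells. It was at 134.3, 111.1 and 151.1 CPM, above all untreated libraries, and rose against untreated cells by a log2FC of 1.33 ± 0.33 (adjusted p = 0.0481). This was 1 of 6 members, against 0.116% of all genes, and it was not regulated without replicate 1 (adjusted p = 0.427), without replicate 2 (adjusted p = 0.454) or with library size alone (adjusted p = 0.0753). At 24 h SPRY4 was at 54.9, 45.8 and 49.1 CPM, which overlapped the untreated libraries through the third of them, and 0 of 6 members were regulated against 3.38% of all genes (4 had an unadjusted p below 0.05, and DESeq2 gave the same 0 and 4). Without replicate 3 SPRY4 was regulated at 24 h as well, with a log2FC of 1.42 (adjusted p = 0.000815). SPRED1 (log2FC 0.78, adjusted p = 0.00161) and SPRED2 (0.65, adjusted p = 0.00084) were above untreated cells by less than the fold limit.

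Against EGF alone, EGF + cetuximab gave 0 of 12 regulated member results in MKN1, with 3 at an unadjusted p below 0.05, in edgeR and in DESeq2 alike. In all genes 0.126% were regulated at 4 h and 0.156% at 24 h. SPRY2 at 4 h was at 24.1, 23.9 and 25.3 CPM under the combination, below the EGF libraries (36.6 to 38.6 CPM) and above the untreated ones (14.6 to 16.5 CPM). The difference from EGF was -0.62 ± 0.14 on the log2 scale (adjusted p = 0.0215), short of the fold limit. SPRY4 at 24 h had a log2FC of -1.03 ± 0.33 (adjusted p = 0.18), and its libraries under the combination lay below all EGF libraries.

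**Figure D2:**
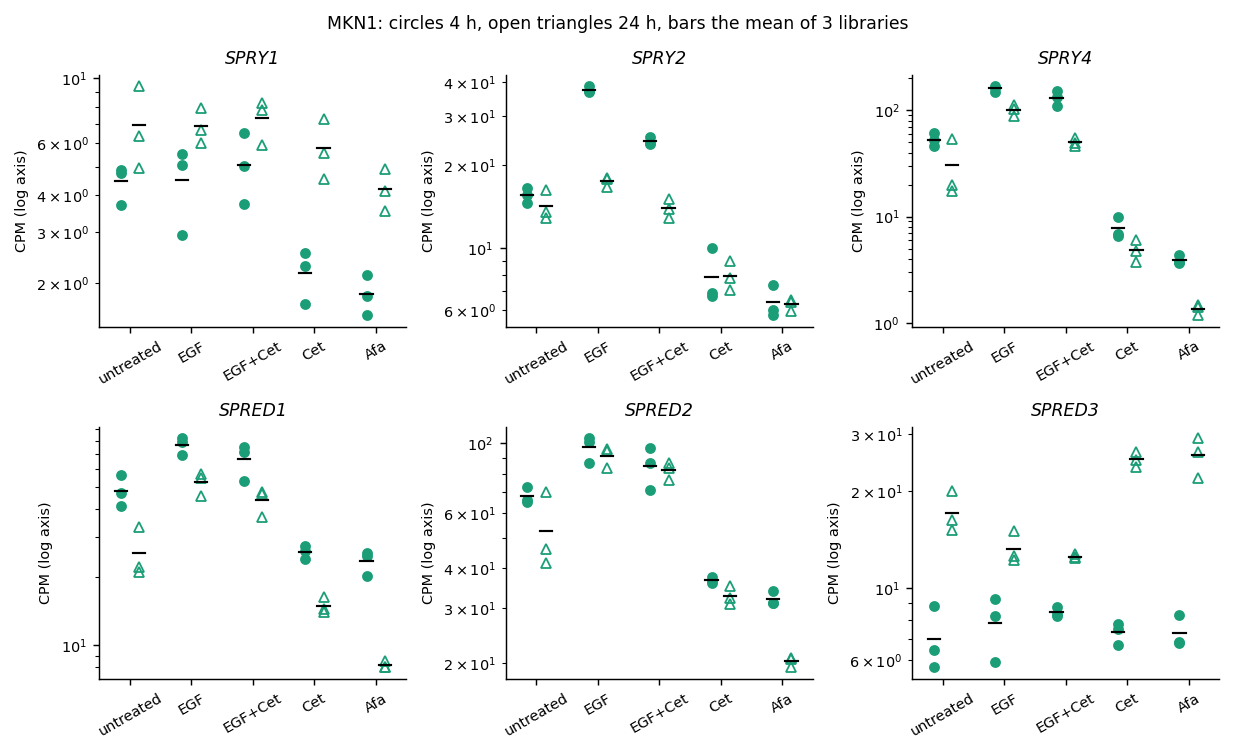
Level of each member in MKN1 cells in CPM on a log axis, untreated and with EGF, EGF + cetuximab, cetuximab or afatinib. Circles are 4 h, open triangles 24 h, and bars the mean of 3 libraries. SPRY4 spans the range from 1.35 CPM (afatinib, 24 h) to 161.0 CPM (EGF, 4 h), while SPRED3 is higher at 24 h than at 4 h in every treatment.

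Over all MKN1 libraries SPRY4 ranged from 169.8 CPM with EGF down to 1.18 CPM with afatinib. The ratio of the highest to the lowest library was 10.6 for SPRED1, 6.86 for SPRY2, 6.50 for SPRY1, 5.39 for SPRED2 and 5.11 for SPRED3. In Hs746T it was 2.10 for SPRY4 and 3.53 for SPRY1.

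Afatinib lowered most of the family in MKN1. At 4 h SPRY4 was at 3.68, 4.36 and 3.76 CPM, all below the 45.7 to 60.7 CPM of untreated cells, and fell 13.6-fold (log2FC -3.76 ± 0.38, adjusted p = 8.4e-08). SPRY2 went to 5.74, 7.40 and 6.0 CPM and fell by 1.30 on the log2 scale (adjusted p = 3.21e-07). SPRED2 went from 65.9, 65.2 and 72.8 CPM to 31.1, 31 and 33.8 CPM and fell by 1.11 (adjusted p = 1.35e-06). For each of these the groups were apart. SPRY1 (log2FC -1.29, adjusted p = 0.00562) and SPRED1 (-1.05, adjusted p = 0.000172) were regulated too, though SPRY1 lost the call without replicate 1 (adjusted p = 0.288) and SPRED1 without replicate 3 (log2FC -0.97) and with library size alone (-0.95). That made 5 of 6 members, against 0.681% of all genes. SPRED3 had a log2FC of 0.04.

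At 24 h, 4 of 6 members were regulated in MKN1, against 4.19% of all genes. SPRY4 was at 1.46, 1.42 and 1.18 CPM and fell 22.6-fold (log2FC -4.50 ± 0.42, adjusted p = 7.21e-09), or by 3.71 on the log2 scale without replicate 3. SPRED1 went to 8.56, 8.03 and 7.99 CPM (log2FC -1.65 ± 0.18, adjusted p = 9.45e-08), SPRED2 to 20.8, 19.4 and 20.6 CPM (-1.39 ± 0.14, adjusted p = 2.23e-08) and SPRY2 to 6.41, 5.93 and 6.53 CPM (-1.20 ± 0.15, adjusted p = 4.87e-07). None of these overlapped the untreated libraries. SPRY1 was at 4.14, 3.52 and 4.92 CPM, with all libraries below the lowest untreated one (4.96 CPM), the highest of them only just, and a log2FC of -0.74 (adjusted p = 0.0394). SPRED3 was at 26.4, 21.9 and 29.1 CPM, above the 15.1 to 20 CPM of untreated cells. Its log2FC of 0.57 ± 0.13 (adjusted p = 0.00129) was short of the fold limit. For 0 of 6 members was the change of the afatinib effect between the times regulated in MKN1, against 0.575% of all genes.

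Afatinib and cetuximab were compared directly in MKN1 at the 1 dose given of each. At 24 h SPRY4 was lower in all afatinib libraries (1.18 to 1.46 CPM) than in all cetuximab libraries (3.77 to 6.06 CPM), with a log2FC of -1.83 ± 0.42 and an adjusted p of 0.0931. SPRED1 (-0.86, adjusted p = 0.0493) and SPRED2 (-0.69, adjusted p = 0.0271) were lower under afatinib by less than the fold limit. At 4 h SPRY4 had a log2FC of -0.99 (adjusted p = 1). In edgeR 0 of 12 results were regulated, with 6 at an unadjusted p below 0.05, and DESeq2 called 1, which was SPRY4 at 24 h (adjusted p = 0.00103). Among all genes 0% were regulated at 4 h and 0.0202% at 24 h.

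In MKN7 cells afatinib took SPRY4 to the lowest levels in the series. At 4 h it was at 0.813, 0.310 and 0.619 CPM against 17.4, 16.5 and 28.9 CPM without treatment, a 36.9-fold fall (log2FC -5.21 ± 0.48, adjusted p = 1.11e-07). SPRED2 went from 58.8, 62.5 and 68.5 CPM to 14, 15 and 13.5 CPM (log2FC -2.20 ± 0.12, adjusted p = 1.21e-10), and SPRED1 from 31.7, 37.4 and 39.7 CPM to 8.86, 8.48 and 9.33 CPM (-2.07 ± 0.17, adjusted p = 3.17e-08). All 3 were without overlap. MKN7 at 4 h was also the only comparison with afatinib against untreated cells in which SPRED3 was regulated. It was at 1.65, 1.48 and 1.75 CPM and then at 0.834, 0.641 and 0.839 CPM (log2FC -1.11 ± 0.22, adjusted p = 0.000974). This was 4 of 6 members against 3.4% of all genes. SPRY2 had a log2FC of -0.99 (adjusted p = 0.000719, and -1.11 without replicate 1) and SPRY1 -0.87 (adjusted p = 0.0159).

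At 24 h SPRED3 in MKN7 was back among the untreated libraries, with 1.96, 1.78 and 1.23 CPM against 2.11, 1.73 and 1.97, and the other 5 of 6 members were regulated against 13.5% of all genes. SPRY4 was at 0.505, 0.201 and 0.226 CPM, against 7.25, 6.17 and 17.4 CPM, and fell 33.6-fold (log2FC -5.07 ± 0.52, adjusted p = 1.08e-07). Single replicates moved this value, to -5.80 without replicate 1 and -4.30 without replicate 3. SPRED1 was at 4.81, 4.33 and 5.19 CPM (log2FC -2.39 ± 0.18) and SPRED2 at 10.7, 10.1 and 11.6 CPM (-2.34 ± 0.12). SPRY1 went from 4.46, 5.32 and 6.88 CPM to 2.20, 2.48 and 1.70 CPM (-1.39 ± 0.25, adjusted p = 7.62e-05). SPRY2 went from 34, 27.4 and 47.1 CPM to 13.5, 11.6 and 16.8 CPM (-1.38 ± 0.20, adjusted p = 6.5e-06). The afatinib effect in MKN7 did not change with time beyond the limits for any of the 6 members, against 4.67% of all genes regulated, with SPRED3 at 0.88 (adjusted p = 0.0484) nearest to it. Without replicate 3 SPRED3 was regulated (1.04, adjusted p = 0.0412), 1 of 6.

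SPRY4 also fell under afatinib in NCI-N87, the line with most ERBB2 transcript. At 4 h it was at 1.69, 2.11 and 1.56 CPM against 24.9, 33.6 and 23.9 (log2FC -3.94 ± 0.19, adjusted p = 1.65e-11). At 24 h it was at 0.542, 0.338 and 0.321 CPM against 21.6, 30.8 and 26.1 (log2FC -6.05 ± 0.23, adjusted p = 1.44e-14). In fold this was 15.3 and then 66.2. SPRED1 went from 66.4, 67.3 and 60.3 CPM to 27.5, 28.8 and 27.7 CPM at 4 h (log2FC -1.21 ± 0.09) and from 63.1, 73.8 and 76.1 CPM to 14, 14.9 and 15.6 CPM at 24 h (-2.29 ± 0.09). SPRED2 ran almost in parallel, with log2FC of -1.31 ± 0.09 and -2.30 ± 0.09. SPRY2 was at 2.61, 2.96 and 2.43 CPM at 4 h (-1.40 ± 0.19) and at 1.82, 1.14 and 1.79 CPM at 24 h (-2.25 ± 0.20), where untreated cells had 5.51 to 9.23 CPM. SPRY1 had -1.79 ± 0.21 at 4 h and -1.67 ± 0.21 at 24 h.

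In NCI-N87 5 of 6 members were regulated at either time, against 3.24% of all genes at 4 h and 29.6% at 24 h. The deepening with time was regulated for SPRY4 (difference in log2FC -2.11 ± 0.30, adjusted p = 1.11e-05) and SPRED1 (-1.08 ± 0.13, adjusted p = 1.29e-06), 2 of 6 members, against 15% of all genes. For SPRED2 it was -0.99 (adjusted p = 2.35e-06), and the SPRED1 call was lost with library size alone (-0.89) and without replicate 3 (-1.0). SPRED3 was at 6.41, 7.57 and 5.48 CPM after 24 h of afatinib against 4.71, 5.43 and 3.75 CPM. The lowest afatinib library lay just above the highest untreated one, and the log2FC was 0.45 (adjusted p = 0.0419). The summed epithelial markers of NCI-N87 were 10266.0 to 17282.2 CPM in 6 afatinib libraries against 18530.5 to 21604.0 in untreated cells, with 3 of 10 regulated higher and 3 lower at 24 h, and markers of other cell types had 0 of 8 regulated there, with sums of 29.9 to 40.2 CPM under afatinib against 26.4 to 40.3 CPM. In MKN7 the epithelial sums were 4611.9 to 6176.3 CPM under afatinib against 6105.3 to 7237.9, with MUC1 higher and TFF1 lower at 24 h, and the other cell types summed to 18.3 to 40.1 CPM against 17.6 to 40.2, with PTPRC, 1 of 7, higher. In MKN1 the epithelial sums were 14812.9 to 18204.8 CPM against 17042.2 to 20950.2, with MUC1, 1 of 10, higher at 24 h, and the other cell types summed to 235.8 to 658.6 CPM against 365.3 to 751.1, with DES and DCN, 2 of 9, higher. Without treatment these genes were near the floor, with means of 0.134 CPM (DES) and 0.191 CPM (DCN) in MKN1. PTPRC in MKN7 was near it as well (0.138 CPM). At 24 h the share of all genes regulated was 29.6% in NCI-N87, 13.5% in MKN7 and 4.19% in MKN1. At 4 h 0 markers of either list were regulated in these 3 lines, against 3.24%, 3.4% and 0.681% of all genes. The part of these markers in the results was not tested.

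Counts of 0 for changes with time and between lines came from edgeR, and DESeq2 gave 0 for each as well. For the change between the times, edgeR had an unadjusted p below 0.05 for 2 members under afatinib, 2 under EGF and 1 under cetuximab in MKN1 and for 1 under afatinib in MKN7, and DESeq2 for 2, 2, 2 and 1.

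Fewer transcripts per cell and fewer cells with the transcript cannot be told apart in these bulk samples.

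No member was regulated by any treatment in Hs746T. SPRY4 was at 49.1, 40.3 and 48.1 CPM after 4 h of afatinib against 56.7, 47.3 and 47.9 CPM, and at 45.2, 29.5 and 31.6 CPM after 24 h against 44.5, 30.5 and 31.7 CPM. The groups overlapped at both times, and same-numbered replicates lay close together. Over all treatment comparisons of Hs746T, 0 of 120 member results were regulated in edgeR and in DESeq2. At an unadjusted p below 0.05 each tool listed 1, SPRY2 under afatinib at 24 h (96.9 to 100.9 CPM against 105.5 to 116.3, log2FC -0.20). The share of all genes regulated was likewise 0% in each comparison of this line, for EGF, EGF + cetuximab, cetuximab, trastuzumab, afatinib, their combinations and the change of the afatinib effect with time.

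**Figure D3:**
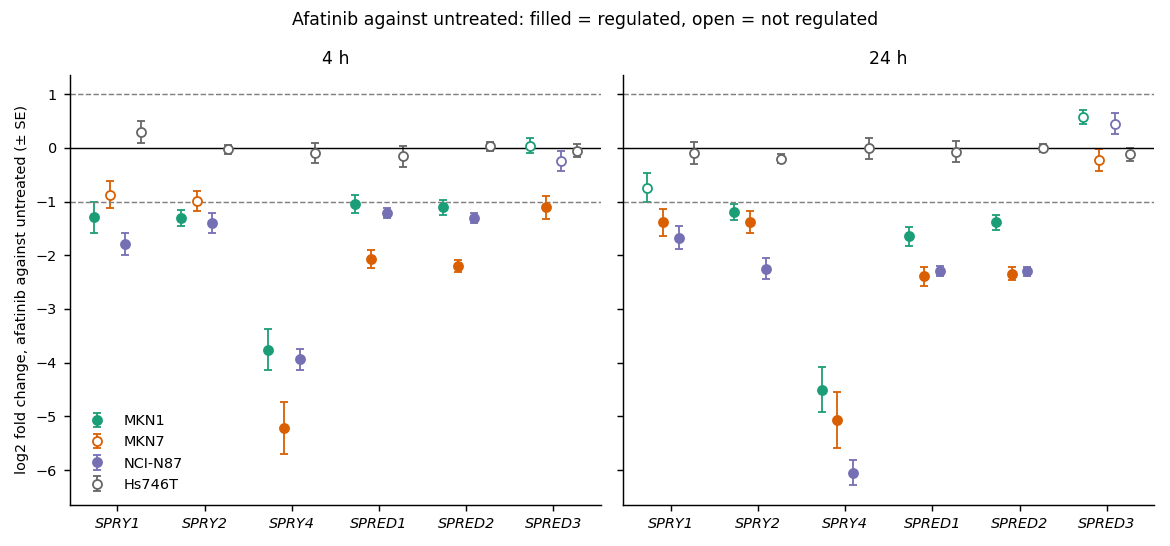
log2 fold change (± SE, 3 against 3 libraries) of each member under afatinib against untreated cells at 4 h and 24 h in 4 cell lines. Filled points are regulated and dashed lines mark the fold limits. SPRY4 lies between -3.76 and -6.05 in MKN1, MKN7 and NCI-N87, and every Hs746T point lies between -0.20 and 0.29.

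In all, afatinib against untreated cells gave 28 of 48 regulated member results, all of them lower. SPRY4, SPRED1 and SPRED2 were regulated at both times in all of MKN1, MKN7 and NCI-N87, and SPRY2 in all but MKN7 at 4 h. The members had median log2FC of -1.20, -1.59 and -1.36 at 4 h and -1.29, -1.86 and -2.27 at 24 h in MKN1, MKN7 and NCI-N87, while the median of all genes was between 0.01 and 0.04.

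Whether the lines differed in the afatinib effect was tested in 1 fit of all libraries, on the difference of the log2FC. Of the pairs tested, Hs746T and MKN1 had the most regulated members, and Hs746T was not compared with MKN7 or NCI-N87. At 4 h the difference was 3.60 ± 0.43 for SPRY4, 1.52 ± 0.36 for SPRY1, 1.22 ± 0.21 for SPRY2 and 1.08 ± 0.15 for SPRED2, so 4 of 6 members were regulated against 0.245% of all genes. At 24 h it was 4.47 ± 0.46 for SPRY4, 1.57 ± 0.25 for SPRED1 and 1.38 ± 0.15 for SPRED2, 3 of 6 against 1.34%. In MKN7 minus MKN1 at 4 h the difference was regulated for SPRED2 (-1.07 ± 0.15, adjusted p = 6.25e-07) and SPRED3 (-1.13 ± 0.26, adjusted p = 0.00654). That was 2 of 6 against 0.473% of all genes. SPRED2 fell in both lines, and more in MKN7. SPRED3 fell in MKN7 but not in MKN1, where its mean was 6.98 CPM without treatment and 7.3 CPM with afatinib. SPRY4 differed by -1.42 ± 0.51 between MKN7 and MKN1 at 4 h (adjusted p = 0.192), which is not regulated.

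At 24 h NCI-N87 had a larger fall than MKN1 for SPRY4 (-1.53 ± 0.54, adjusted p = 0.0249) and SPRY2 (-1.04 ± 0.23, adjusted p = 0.000198), 2 of 6 against 13.4%. At 4 h this pair had 0 of 6 against 0.565%. MKN7 against MKN1 at 24 h had 0 of 6 against 3.6%, and NCI-N87 against MKN7 had 0 of 6 at 4 h (0.473% of all genes) and 0 of 6 at 24 h (9.64%). In these 4 contrasts, in the order given, edgeR had 0, 3, 6 and 2 members with an unadjusted p below 0.05, and DESeq2 had 0, 3, 5 and 2, with 0 regulated. The larger SPRY4 fold in NCI-N87 than in MKN7 at 24 h was not past the threshold (difference -0.96 ± 0.66, adjusted p = 0.338). Several of these calls depend on replicates or settings. SPRY4 in NCI-N87 minus MKN1 at 24 h was -1.04 (adjusted p = 0.369) without replicate 2 and lost the call without replicate 1 (adjusted p = 0.0708). SPRY2 in the same contrast was -0.77 without replicate 2, and it lost the call in 5 other fits, with log2FC from -1.0 to -0.88. SPRED3 in MKN7 minus MKN1 at 4 h lost the call without replicate 2 (adjusted p = 0.281) or replicate 3 (adjusted p = 0.182), SPRED2 there was -0.99 without replicate 3, and SPRY1 in Hs746T minus MKN1 lost it without any 1 of the 3 (adjusted p from 0.104 to 0.282). In Hs746T minus MKN1 at 4 h, SPRED2 lost the call with library size alone (1.0). SPRY1 also lost it there with the compared groups alone (adjusted p = 0.0684, edgeR). SPRY4 in Hs746T minus MKN1 at 24 h was 3.72 without replicate 3.

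The EGF effect also differed between Hs746T and MKN1, by -1.57 ± 0.41 for SPRY4 (adjusted p = 0.0325) and -1.14 ± 0.21 for SPRY2 (adjusted p = 0.000256) at 4 h and by -1.67 ± 0.42 for SPRY4 (adjusted p = 0.00391) at 24 h. That was 2 of 6 against 0.486% of all genes and 1 of 6 against 3.15%. In Hs746T SPRY4 was at 61.6, 46.3 and 48.4 CPM with EGF at 4 h, against 56.7, 47.3 and 47.9 CPM in untreated cells, which the EGF values spanned, and EGFR transcript was present at 275.1 ± 9.85 CPM (n = 6). The SPRY4 difference was not regulated at 4 h without replicate 1, 2 or 3 (adjusted p = 0.111, 0.685 and 0.0581), nor at 24 h without replicate 1 (adjusted p = 0.0815) or 2 (adjusted p = 0.178), and it was -2.35 without replicate 3.

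No member was regulated by trastuzumab in any line. In NCI-N87 SPRY4 was at 29.8, 38.7 and 35.9 CPM at 4 h against 24.9, 33.6 and 23.9, and at 17.2, 22.9 and 16.4 CPM at 24 h against 21.6, 30.8 and 26.1. The log2FC were 0.34 and -0.49. Each library lay above the untreated one of its number at 4 h and below it at 24 h, though the groups overlapped. In MKN7 SPRY4 was at 14.3, 12.4 and 19 CPM at 4 h against 17.4, 16.5 and 28.9, and at 3.76, 5.05 and 10.1 CPM at 24 h against 7.25, 6.17 and 17.4. Every one of these 6 libraries lay below the untreated one of its number, with log2FC of -0.49 ± 0.36 and -0.70 ± 0.38 (adjusted p = 0.987 and 0.999). In MKN1 at 24 h SPRY4 was lower in each pair as well (log2FC -0.35, adjusted p = 1). With the replicate number as a block SPRY4 had -0.46 ± 0.21 and -0.66 ± 0.23 in MKN7 (adjusted p = 0.549 and 0.413) and 0.35 ± 0.10 and -0.49 ± 0.10 in NCI-N87 (adjusted p = 0.585 and 0.16). The block left 0 of 48 member results regulated and 8 at an unadjusted p below 0.05. How many of all genes keep such an order of same-numbered libraries was not counted. Members differed in it. In MKN7 at 4 h SPRY2 lay above the untreated library in each pair (46.5, 39.7 and 40.6 CPM against 44.1, 38.4 and 39.2). SPRED2 lay below it in each pair (57.7, 58.9 and 63.6 CPM against 58.8, 62.5 and 68.5). Over 48 member results 0 were regulated in edgeR and in DESeq2. Both tools listed 2 at an unadjusted p below 0.05, SPRED2 at 4 h (log2FC 0.24) and SPRY4 at 24 h (-0.49), each in NCI-N87. The share of all genes was 0% in each of the 4 lines at either time. With no adjustment of the p-value and no block, edgeR with all libraries of a line listed below 0.05 at most 786 genes and DESeq2 at most 746, both in NCI-N87 at 24 h, and DESeq2 also had 0 regulated. With the replicate number as a block edgeR listed 1949 there, and 1 gene, no member, was regulated. Without replicate 1 it listed 1654 in Hs746T at 4 h.

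The afatinib effect was seen again in libraries that share no sample with the comparison above, trastuzumab + afatinib against trastuzumab. Both comparisons came from the same fit of each line, and same-numbered libraries tended to deviate together. They are thus not independent repeats. SPRY4 went from 53.7, 55 and 54.5 CPM to 3.02, 4.13 and 3.23 CPM in MKN1 at 4 h (log2FC -3.99 ± 0.39, adjusted p = 3.78e-08). In MKN7 at 24 h it went from 3.76, 5.05 and 10.1 CPM to 0.317, 0.072 and 0.284 CPM (log2FC -4.84 ± 0.55, adjusted p = 9.71e-07, and -5.43 without replicate 1). The value of 0.072 CPM stands on 4 counts and is the lowest of any member in the series. In NCI-N87 at 24 h SPRY4 went from 17.2, 22.9 and 16.4 CPM to 0.531, 0.399 and 0.391 CPM (log2FC -5.42 ± 0.23, adjusted p = 4.44e-14). None of these groups overlapped.

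This comparison gave 26 of 48 regulated member results, again all lower. The counts in MKN1 were 5 of 6 at 4 h (0.631% of all genes) and 3 of 6 at 24 h (4.22%), where SPRY4 was -4.17 and, without replicate 3, -3.26. In MKN7 they were 3 of 6 (2.96%) and 5 of 6 (9.7%), in NCI-N87 5 of 6 (4%) and 5 of 6 (28.2%), and in Hs746T 0 of 6 at each time (0%). SPRY1 in MKN1 at 4 h lost the call without replicate 1 (adjusted p = 0.186). The SPRED3 call of afatinib against untreated cells in MKN7 at 4 h was not repeated. SPRED3 was at 1.0, 0.82 and 1.26 CPM there, against 1.57, 1.78 and 1.78 CPM with trastuzumab alone. The SPRY2 call in MKN1 at 24 h was not repeated either (log2FC -0.96, and -1.13 without replicate 1). SPRED3 was above trastuzumab cells at 24 h in MKN1 (log2FC 0.51, adjusted p = 0.00326) and NCI-N87 (0.54, adjusted p = 0.0163), in both within the fold limit. Against untreated cells, which are shared with the comparisons of the single drugs, the combination gave 27 of 48, with 0.727% and 4.24% of all genes regulated in MKN1 at 4 h and 24 h, 3.71% and 13.9% in MKN7, 3.01% and 31.6% in NCI-N87 and 0% in Hs746T. Adding trastuzumab to afatinib gave 0 of 48 regulated results, with 0 at an unadjusted p below 0.05 in edgeR and in DESeq2, and 0% of all genes in each line and time.

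**Figure D4:**
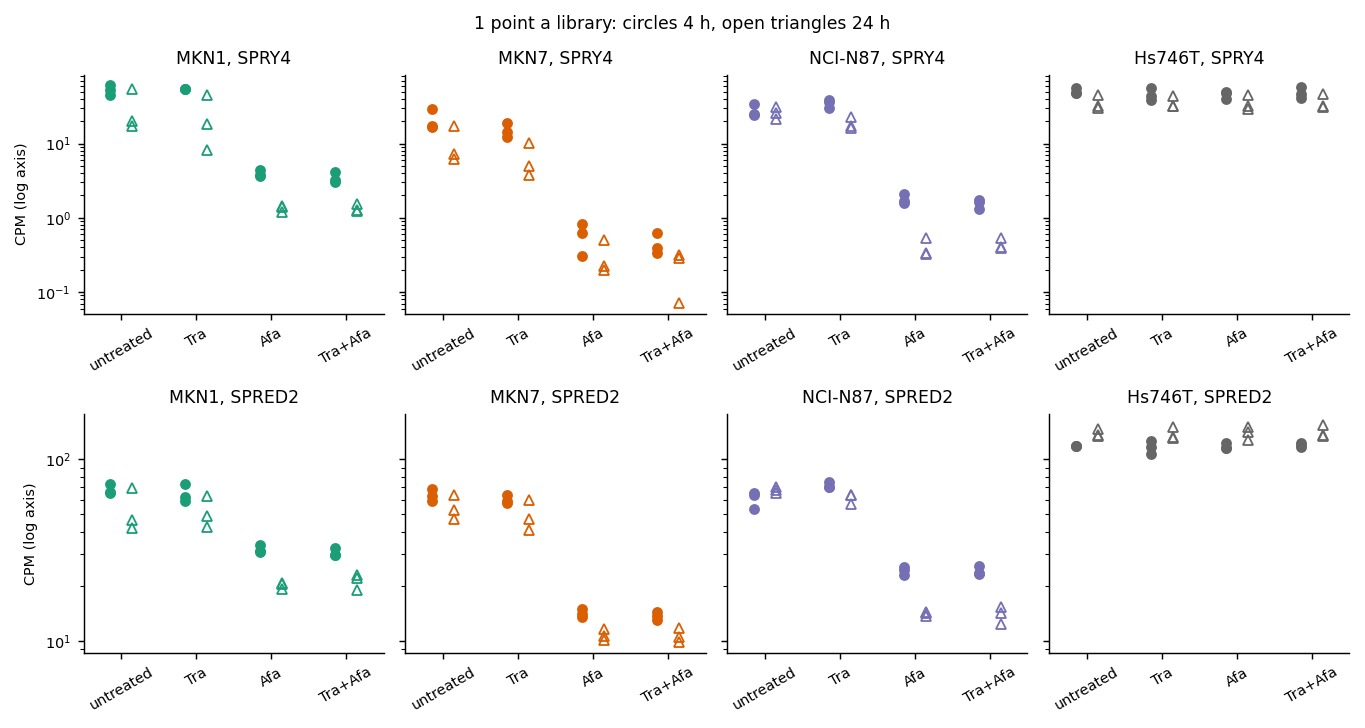
SPRY4 (upper row) and SPRED2 (lower row) in CPM on a log axis for each library of the 4 cell lines, untreated and with trastuzumab (Tra), afatinib (Afa) or both. Circles are 4 h and open triangles 24 h. In MKN1, MKN7 and NCI-N87 all afatinib libraries lie below all libraries without it, and in Hs746T SPRY4 stays between 29.5 and 56.9 CPM.

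Across libraries the members moved in 3 ways. Correlations were taken over all libraries on log2 CPM after subtracting the mean of each line. They describe joint movement over shared treatments, and libraries of a condition are not independent. SPRY2, SPRY4, SPRED1 and SPRED2 ran together, with Pearson's r from 0.87 to 0.96 between pairs. SPRY1 was looser, with r from 0.48 to 0.65 against those 4. SPRED3 was near or below 0 with them (-0.33 to -0.15) and at 0.30 with SPRY1. With the mean of each line and time subtracted, SPRY1 reached 0.81 to 0.83 with those 4, and SPRED3 stayed between -0.06 and -0.03.

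The genes most like each member repeat this division. Nearest to SPRY4 were DUSP6 (r = 0.971), which encodes the phosphatase that removes phosphate from ERK, SPRED2 (0.964), SPRED1 (0.954), LONRF3 (0.951) and MFSD2A (0.950), among 11747 genes compared. SPRY2 was nearest to DUSP6 (0.931), SPRY4 (0.929), DUSP5 (0.923), LIF (0.917) and SLC20A1 (0.913). SPRED1 was nearest to DUSP7 (0.959), MFSD2A (0.956), CCND1 (0.955), SPRY4 and SPRED2 (0.946). SPRED2 had SPRY4, SPRED1, GPR3 (0.938), DUSP6 (0.938) and LONRF3 (0.931). For SPRY1 the values were lower and the genes others, NGLY1 (0.769), BHLHE40 (0.760), ORC2 (0.740) and IVNS1ABP (0.736), and these changed to EGR1 (0.861), DUSP6 (0.843), JAG1 (0.831), LONRF3 (0.829) and SPRY4 (0.828) when the time was also subtracted. SPRED3 was nearest to FAM214B (0.831), DDR1 (0.809), DGKA (0.796), SMARCA1 (0.795) and GBP3 (0.789). With the time also subtracted only DGKA (0.714) stayed, beside RBMS2 (0.701), PDE4DIP (0.666), MAPKBP1 (0.663) and AC241952.1 (0.654).

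**Figure D5:**
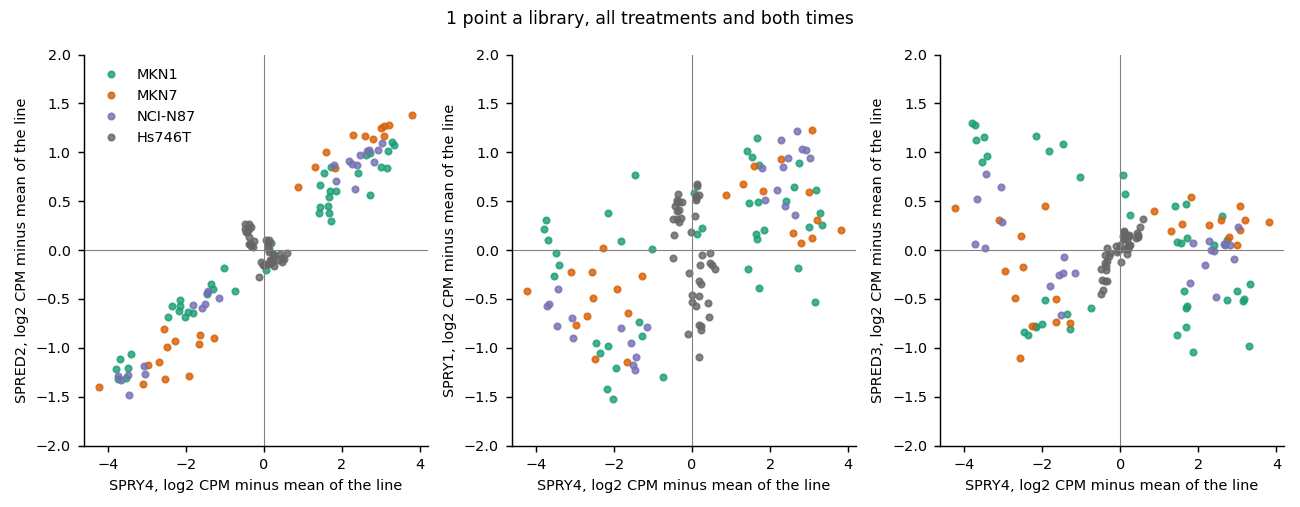
log2 CPM of SPRED2, SPRY1 and SPRED3 against SPRY4, each minus the mean of its cell line, with 1 point for each library coloured by line. SPRED2 lies close to a line with SPRY4 (r = 0.96), SPRY1 is wider (0.58) and SPRED3 shows no common slope (-0.17).

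Other genes of the pathway were followed from lists. Of 19 target genes of ERK signalling, 16 or 17 passed the filter on low counts. Under afatinib 12 of 17 were lower and 0 higher in MKN1 at 4 h (median log2FC -1.62), led by the transcription factor gene EGR1 (-3.59 ± 0.39), DUSP6 (-3.36 ± 0.42) and PHLDA1 (-2.79 ± 0.29). At 24 h these were 15 of 17 (median -2.10). In MKN7 it was 13 of 17 at 4 h (median -1.86) and 13 lower with 1 higher at 24 h (-1.85), and in NCI-N87 14 of 16 (-2.06) and 13 of 16 (-2.39). In NCI-N87 at 24 h DUSP6 fell by 5.46 and EGR1 by 5.15 on the log2 scale, less than SPRY4 in the same libraries in size. EGF in MKN1 raised 8 of 17 at 4 h (median 0.93), among them EGR2 (1.96), DUSP6 (1.84) and EGR3 (1.82). At 24 h 7 were higher and 1 was lower (0.75), the lower one being EGR2 (-1.69). Cetuximab in MKN1 lowered 12 of 17 at either time (medians -1.37 and -1.43). Of all genes afatinib regulated 0.681% in MKN1, 3.4% in MKN7 and 3.24% in NCI-N87 at 4 h. At 24 h the shares were 4.19%, 13.5% and 29.6%. In MKN1 they were 1.48% and 8.36% for EGF at 4 h and 24 h, and 0.333% and 1.33% for cetuximab. In Hs746T 0 target genes were regulated by either drug or EGF, as were 0% of all genes. ETV4 was near 0 counts, with at most 14 in a library, and JUNB was listed at 0.

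Of the 11 genes of the RAS to ERK kinase chain itself, the only one regulated under afatinib was HRAS in NCI-N87 at 24 h (log2FC -1.06 ± 0.16, adjusted p = 5.17e-06), and the medians of the list lay between -0.14 and 0.03. Among 17 partners and regulators of the family, of which 16 were tested and PPP2CA was listed at 0, CBLB, a ubiquitin ligase of the CBL family, was higher under afatinib in MKN7 (log2FC 1.37 ± 0.20 at 4 h, 1.93 ± 0.20 at 24 h) and NCI-N87 (1.22 ± 0.15 and 1.36 ± 0.15). NEDD4L, a ubiquitin ligase, was lower in MKN7 (-1.34 ± 0.12 and -1.01 ± 0.12). In NCI-N87, CAV1, the gene of caveolin-1, had -1.08 ± 0.29 at 24 h and PTPN11, the gene of the phosphatase SHP2, -1.03 ± 0.09. In MKN1 0 of 16 partners were regulated under afatinib. Of 9 receptor genes, ERBB3 was higher in NCI-N87 (1.5 ± 0.13 and 1.85 ± 0.13), FGFR2 at 24 h in MKN7 (1.44 ± 0.17) and NCI-N87 (2.08 ± 0.12), and FGFR4 lower in NCI-N87 at 24 h (-1.65 ± 0.10), where 2 of 9 were higher and 3 lower. Of all genes, 29.6% were regulated under afatinib in NCI-N87 at 24 h and 3.24% at 4 h. The shares at 24 h and 4 h were 13.5% and 3.4% in MKN7 and 4.19% and 0.681% in MKN1. With EGF in MKN1 at 24 h the receptor gene MET was higher (1.18 ± 0.16), where 8.36% of all genes were regulated.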

How the data were processed

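RNA of 132 libraries was sequenced (polyA RNA, directional library kit, paired ends). According to the submitters' processing notes reads were trimmed with Trim Galore and aligned with STAR to hg38. Versions, the counting tool, its annotation and its strand setting are not given in the sources used here. The authors deposited raw counts per gene for each library, without normalization, and these deposited counts were used as they are. Gene names, positions and exon lengths were taken from GENCODE 29, in which 8404 of 65217 identifiers, with 0.0422% of counts, were not found.

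Counts were scaled by TMM and tested with edgeR 4.0.16 (R 4.3.3) by the quasi-likelihood test with Benjamini-Hochberg adjustment over all genes, after a filter on low counts (at least 10 counts in enough libraries and 15 in total). The libraries of a line were fitted together, with 19815 genes tested in MKN1, 18667 in Hs746T, 18483 in MKN7 and 19078 in NCI-N87. Differences between lines came from 1 fit of all 132 libraries (22832 genes), and untreated levels from a fit of the 24 untreated libraries (20560 genes). Similarity of genes was computed on log2 CPM with a prior count of 2, among genes tested in all lines with a mean log2 CPM above 1. Tables and figures were made with Python 3.11.15, pandas 2.3.3 and matplotlib 3.10.9. In simulated data with 100 genes changed by a log2FC of 1.5 in the 24 h afatinib comparison, 75 were called in MKN1 (19294 genes), 81 in Hs746T (18450), 84 in MKN7 (18117) and 81 in NCI-N87 (18607). Of 100 genes changed by 0.5, below the fold limit, 1, 0, 2 and 0 were called in the same order of lines. Among unchanged genes 0, 4, 0 and 2 were called. A count of 0 regulated results thus says little about changes of 0.5. Fixed alternatives were DESeq2 1.42.0, scaling by library size, leaving out the filter, a stricter filter (10 counts in each library), the compared groups only, an adjusted p alone, each replicate left out and a block on the replicate number.

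Whether replicate numbers pair the libraries was read from the correlation of their deviations from group means. Every pair was above 0.1 in MKN1 at 4 h (0.161 to 0.328), Hs746T at 24 h, MKN7 at both times and NCI-N87 at 4 h. The lowest pair was -0.0161 in MKN1 at 24 h, 0.0474 in Hs746T at 4 h and 0.0998 in NCI-N87 at 24 h. In these sets 53 of 63, 62 of 63 and 17 of 18 pairs were above 0.1, with mean r of 0.189, 0.357 and 0.262. The main fits did not use the replicate number, and fits with it as a block are given as an alternative.

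Text names all 6 members, at most 3 genes per list and comparison with the largest log2FC among the regulated ones, and the 5 genes most like each member, of which 1 for SPRY1 is not reported here. The members and the lists were chosen with earlier results of these data known.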

Additional observations from a re-analysis of the deposited data

Results flagged for a closer look

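The results below are differences of an effect between times or lines that passed the test of the difference itself in edgeR (adjusted p below 0.05 and a difference beyond 1 on the log2 scale). The afatinib effect deepened from 4 h to 24 h in NCI-N87 for SPRY4 (difference -2.11) and SPRED1 (-1.08). Compared with MKN1, it was more negative in MKN7 at 4 h for SPRED2 (-1.07) and SPRED3 (-1.13). SPRED3 did not fall in MKN1 at 4 h. The afatinib effect was also more negative in NCI-N87 than in MKN1 at 24 h for SPRY4 (-1.53) and SPRY2 (-1.04). The SPRY2 call was lost in 6 alternative fits and the SPRY4 call in 3. The SPRED1 call in NCI-N87 was lost in 3 and the SPRED3 call in 2, and the SPRED2 call in MKN7 was lost without replicate 3.

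Hs746T minus MKN1 was positive for each member listed under afatinib. At 4 h the difference was 3.60 for SPRY4, 1.52 for SPRY1, 1.22 for SPRY2 and 1.08 for SPRED2. Of these, SPRY1 lost the call without any 1 of the 3 replicates and with the compared groups alone. SPRED2 lost it with library size alone (1.0). At 24 h it was 4.47 for SPRY4, 1.57 for SPRED1 and 1.38 for SPRED2. For EGF the same difference was -1.57 for SPRY4 and -1.14 for SPRY2 at 4 h, and -1.67 for SPRY4 at 24 h. Both SPRY4 calls were lost without replicate 1 or 2. With 3 libraries per group, no search for single outlying samples was made.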

How the results depend on the processing

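Among 157 member results that were regulated in at least 1 fit, 1 lost and 3 gained the call with DESeq2, 1 lost and 5 gained it without a filter, 8 lost and 2 gained it with library size alone, and 9 lost and 15 gained it without replicate 3, while 0 were reversed under any alternative. With a block on the replicate number, the regulated count for EGF + cetuximab against EGF went from 0 to 1 (SPRY4 at 24 h, adjusted p = 0.0206), for afatinib against cetuximab from 0 to 1 (SPRY4 at 24 h, adjusted p = 0.0233) and for untreated cells over time from 1 to 2. The block also called SPRY4 in MKN7 minus MKN1 at 4 h (-1.43, adjusted p = 0.0362). Between untreated lines it called SPRED1 in MKN1 against Hs746T (-1.35), SPRY4 in MKN7 against NCI-N87 (-1.05) and NCI-N87 against Hs746T (-1.12), and it did not call SPRY1 in MKN7 against Hs746T (0.95) or SPRED2 in NCI-N87 against Hs746T (-0.98). With the block 2 lost and 8 gained the call in all, of which SPRY1 under cetuximab and SPRY4 over time in MKN7 stand in the report.

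With an adjusted p alone the counts were 8 for EGF (4 with the fold limit), 5 for EGF + cetuximab (1), 9 for cetuximab (2), 1 for EGF + cetuximab against EGF, 2 for afatinib against cetuximab, 6 for untreated cells over time, 7 for the change of effects with time (2), 21 for afatinib between lines (11) and 5 for EGF between lines (3). The shares of all genes without the fold limit, and in the other fits of this paragraph, are not given here. These counts therefore cannot be read as an excess over all genes. With the compared groups alone, EGF + cetuximab against EGF and afatinib against cetuximab gave 1 each. Afatinib against cetuximab also gave 1 with DESeq2 and 1 without a filter, and untreated cells over time gave 2 without a filter. With at least 10 counts in every library, which leaves fewer genes tested, the change with time gave 1, afatinib between lines 7 and EGF between lines 1. With library size alone, EGF + cetuximab against untreated cells gave 0. Leaving out 1 replicate at a time gave 0 to 2 for EGF + cetuximab, 1 to 4 for untreated cells over time and 1 to 4 for EGF between lines. Causes were not tested.

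SPRY2 in NCI-N87 minus MKN1 at 24 h lost the call with DESeq2 (-0.94), library size alone (-0.88), the compared groups alone (-0.93), every gene kept (-1.0) and the stricter count filter (-0.88), and SPRY4 there with the compared groups alone (adjusted p = 0.0809). Without replicate 3 SPRY4 in MKN1 at 24 h under trastuzumab + afatinib was -3.77 and SPRED2 -1.0. Depth limits SPRY4 under afatinib in MKN7, where 1 library held 4 counts.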
